A study of Homo sapiens with 18 samples.

Results

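The response of OVCAR3 cells to IgA of no particular specificity was taken from the 3 IgA and 3 untreated libraries of a first sequencing series, 6 of the 18 libraries deposited. They were chosen by their group labels, and every gene that passed a filter on low counts was tested, 17076 in all. OVCAR3, a long-established line of human high-grade serous ovarian carcinoma, stands behind every library, so no group reaches beyond 1 line in culture. Cells in RPMI medium with 2% fetal bovine serum received natural human IgA at 0.5 µg/ml or no antibody. Incubation lasted 24 h in the labels and the methods, whereas another description of the experiment gives 8 h. Cells given natural human IgG at the same dose, also 3 libraries, are shown as a reference. The remaining 9 libraries, from a second series with IgA against BDNF, IgA against TSPAN7 and its own untreated cells, were used only to set responses side by side. The study describes its replicates as experiments or biological replicates, without saying how the cultures behind each library were kept apart. The p-values thus measure the spread between these libraries, pooled over the groups compared.

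IgA is the antibody class that epithelia carry from their basal to their luminal side. The polymeric immunoglobulin receptor, encoded by PIGR, binds dimeric IgA and takes it through the cell in vesicles, a route known as transcytosis. High-grade serous carcinoma derives from Müllerian epithelium, in which secretory cells express PAX8 and ciliated cells express FOXJ1, the factor that switches on genes of motile cilia.

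Normalised counts below are the counts after each library was brought to the same effective size, the mean over the 6. They compare libraries for 1 gene, not genes with each other. IgG values, shown for reference only, were scaled with factors computed over all 9 libraries of the first series, so their scale can differ slightly. The defining markers of the line were present in all 6 libraries. PAX8 lay at 21513 to 27516 normalised counts with IgA and 17281 to 20717 in untreated cells, and was not called. EPCAM, MUC16, KRT18 and CDH1 were not called either, KRT7 was called higher, and WT1 and KRT8 were called lower. PIGR was low in every library, with 22.1, 4.91 and 14.1 normalised counts in the IgA libraries and 34.8, 32.3 and 21.5 in the untreated ones. The groups overlapped and PIGR was not called (log2 fold change -1.11, SE 0.61, edgeR adjusted p 0.227).

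Library totals ranged from 27920733 counts in IgA replicate 3 to 42371474 in untreated replicate 3. IgA replicate 3 also had the lowest TMM scaling factor, 0.822. Its 10 most abundant genes took 21.6% of its counts, against 8.17% to 12.0% in the other libraries compared. Between 16062 (replicate 3) and 16959 genes had at least 10 counts in an IgA library, against 17136 to 18031 in an untreated one. These numbers of genes are not adjusted for library size. Mitochondrial genes took 19.1% of the reads counted in IgA replicate 3, 7.40% in replicate 1 and 5.75% in replicate 2, and 7.197% to 8.316% in untreated libraries. Of 18 leukocyte markers, 7 had no count in any of the 6 libraries (among them CD3E, MS4A1 and TYROBP), and the summed level of the list was 172 to 209 normalised counts with IgA and 172 to 212 without. CD4, CD8A, PTPRC and CD14 had reads in all 6 libraries, with raw counts of 46 to 122, 18 to 61, 10 to 56 and 9 to 37. Of 10 fibroblast markers, 2 had at most 3 counts in every library and COL1A1 and COL1A2 made up most of a sum of 2369 to 4845 with IgA and 2215 to 2461 without. Of 7 endothelial markers, CLDN5 and ROBO4 were at 0 throughout, and the sum was 208 to 526 against 500.3 to 543. ERG held most of that sum, with raw counts of 113 to 452 in IgA libraries and 450 to 608 in untreated ones. CDH5 of that list was called higher, with 9 to 40 counts in IgA libraries and 1 to 6 in untreated ones, a call lost without IgA replicate 2 or any 1 untreated library. The part of such markers in the results was not tested.

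With IgA, 1512 genes were called lower than in untreated cells (8.85% of 17076 tested) and 1789 were called higher (10.5%), by the edgeR quasi-likelihood F test, two-sided, at a Benjamini-Hochberg adjusted p under 0.05. The decreased genes fell by a median of 0.81 on the log2 scale, and 549 of them by more than 2-fold. All 3 IgA libraries lay below all 3 untreated libraries in 1509 of the 1512, and in 3524 of all genes tested (20.6%). Summed over the 1512 genes, normalised counts went from a mean of 3231359.9 in untreated libraries to 2017922 in IgA libraries. Of the decreased genes, 1292 were annotated as protein-coding and 146 (9.66%) had clone-based names, a kind of name that 12.2% of all genes tested had. The median transcript length was 4673 bases for decreased genes, 3626 bases for increased genes and 3722 bases for all genes tested. Median GC content was 49.4%, 47.6% and 47.9% in that order. Genes under 50 normalised counts in untreated cells were called lower in 2.17% of cases, and those in the 4 ranges above in 8.03% to 11.9%.

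The number of calls rested on the untreated libraries. Without untreated replicate 1, 2 or 3, the genes called lower numbered 615, 717 and 524, and those called higher 779, 876 and 730. With library size alone as the scale, the median over all genes moved by -0.20 on the log2 scale and the calls were 2221 lower and 787 higher, so that 26.2% of calls were higher instead of 54.2%, and upper quartile scaling gave 1896 lower and 1421 higher (42.8% higher). No gene called lower was called higher under any of 18 alternative settings, and 440 of the 1512 were called lower under every one. Without IgA replicate 1, 2 or 3, the genes called lower numbered 1042, 1964 and 2064, of 17991, 17774 and 17961 tested. Those called higher numbered 1409, 1945 and 2223. Counts of list members under an alternative setting, given below, are to be read beside these totals.

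The 10 largest decreases among genes of at least 50 normalised counts in untreated cells, clone-named ones aside, were 5.23-fold to 8.31-fold. FOXJ1 (chromosome 17, 74132414 to 74137326, GRCh37, as for all gene positions here), the ciliogenesis factor, had 64.6, 65.5 and 96.4 normalised counts in untreated replicates 1, 2 and 3 and 7.73, 4.91 and 15.6 in the IgA replicates, a mean of 9.42 ± 5.55 against 75.5 ± 18.1 (SD, n = 3) (log2 fold change -3.06, SE 0.51, edgeR adjusted p 0.00272). The groups did not overlap, and the 3 IgG libraries lay at 51.7 to 84.8. These are small numbers of reads, with raw counts of 5 to 10 in the IgA libraries.

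PPP1R16B (chromosome 20, 37434340 to 37551667) encodes a regulatory subunit of protein phosphatase 1. It went from 456, 452 and 482 in untreated libraries to 40.9, 109 and 48.4 with IgA (log2 fold change -2.78, SE 0.32, edgeR adjusted p 4.28e-04). FOXQ1 (chromosome 6, 1312333 to 1314993), a forkhead transcription factor, went from 1442, 1202 and 1549.6 to 248, 278 and 109 (log2 fold change -2.70, SE 0.28, edgeR adjusted p 2.12e-04). IgA replicate 2 was the highest of the 3 IgA libraries for both genes, and no IgA library came near an untreated one. In IgG libraries PPP1R16B lay at 313 to 609.8 and FOXQ1 at 852 to 1744. Without IgA replicate 2 the log2 fold change of PPP1R16B was -3.38.

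AXIN2 (chromosome 17, 63524681 to 63557766) is induced by beta-catenin and restrains it in turn, which makes it a usual readout of Wnt signalling. It had 223, 227 and 213 normalised counts in untreated libraries and 38.6, 63.9 and 17.2 in IgA libraries (log2 fold change -2.43, SE 0.37, edgeR adjusted p 0.00184). The untreated libraries spanned 0.09 on the log2 scale in this gene and the IgA libraries 1.78. TMEM100 (chromosome 17, 53796988 to 53809482), which encodes a small transmembrane protein, went from 346, 362 and 257 to 48.6, 75.6 and 17.2 (log2 fold change -2.72, SE 0.39, edgeR adjusted p 0.0013). FAM124A (chromosome 13, 51796470 to 51858375) went from 443, 422 and 347 to 69.6, 110.0 and 28.1 (log2 fold change -2.51, SE 0.36, edgeR adjusted p 0.00138). In all 3 genes IgA replicate 3 was lowest and replicate 2 highest. ETV7 (chromosome 6, 36321868 to 36355577), an ETS family repressor, was the most even of the 10, with 87.1, 104 and 98.8 in untreated and 17.7, 22.6 and 14.1 in IgA libraries (log2 fold change -2.39, SE 0.36, edgeR adjusted p 0.00164).

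The other 3 of the 10 rested on few reads or on uneven libraries. MT-TT, the mitochondrial threonine tRNA, had 257, 368 and 354 in untreated libraries and 19.9, 117 and 7.81 with IgA (log2 fold change -2.69, SE 0.64, edgeR adjusted p 0.0153). Its call was lost without IgA replicate 1 (adjusted p 0.0587 by edgeR), untreated replicate 2 (0.056) or untreated replicate 3 (0.0734), and its log2 fold change was -4.48 without IgA replicate 2. BPIFB4 (chromosome 20, 31667449 to 31699557), of the bactericidal/permeability-increasing fold family, had 79.9, 72.2 and 67.7 and 34.2, 2.95 and 1.56 (log2 fold change -2.45, SE 0.77, edgeR adjusted p 0.0482). IgA replicate 1 stood well above the other two here, and without it the log2 fold change was -4.87. That call was lost without IgA replicate 2 and without any 1 of the untreated libraries (edgeR adjusted p 0.0887 to 0.141).

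SNORD12B (chromosome 20, 47896856 to 47896946), a box C/D small nucleolar RNA, had 51.2, 42.3 and 68.5 in untreated libraries and 0, 16.7 and 9.37 with IgA (log2 fold change -2.60, SE 0.78, edgeR adjusted p 0.0403). It lies within its host gene ZFAS1 (chromosome 20, 47894715 to 47916137), which was called higher, from 1839.8, 1685 and 1869 to 4040.4, 2658 and 3405 (log2 fold change 0.91, SE 0.15, edgeR adjusted p 0.00273). Counting was not stated to use strand, and reads of nested genes can be lost or shared. The SNORD12B call was lost without any 1 untreated library (edgeR adjusted p 0.0927 to 0.175) and its log2 fold change was -2.0039 without IgA replicate 1 and -3.67 without IgA replicate 2.

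**Figure D1:**
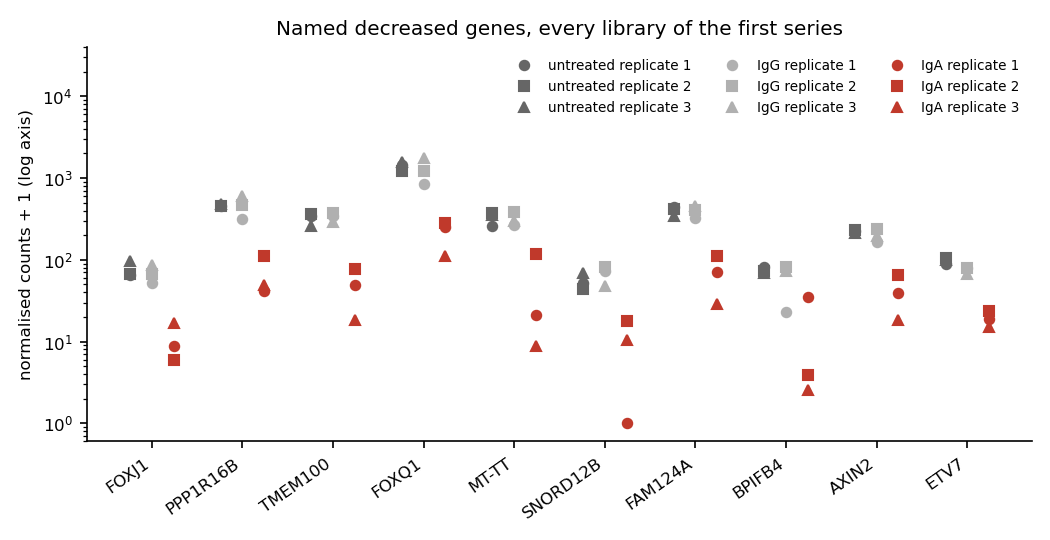
Normalised counts plus 1, on a log axis, of the 10 named decreased genes in each untreated, IgG and IgA library (marker shape gives the replicate). In every gene all IgA points lie below all untreated points, and IgA replicate 3 (triangle) is the lowest IgA library in 7 of 10.

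Among clone-named transcripts, most of them without a described function, 3 met the same conditions with the lowest log2 fold changes. RP4-781K5.8 went from 64.6, 48.1 and 48.6 normalised counts to 5.52, 1.96 and 10.9 (log2 fold change -3.19, SE 0.61, edgeR adjusted p 0.00554), and its log2 fold change was -3.83 without IgA replicate 3. RP4-738P15.1 had a log2 fold change of -3.16 (edgeR adjusted p 0.0167), which lost its call without untreated replicate 1 (0.103) or 3 (0.0589) and was -4.77 without IgA replicate 1. With a variance for each group RP4-738P15.1 was not called either (limma-voom adjusted p 0.0514). RP11-538D16.2 had -2.95 (edgeR adjusted p 0.0262), lost its call without any 1 untreated library, and was -2.36 without IgA replicate 1 and -4.32 without IgA replicate 2. None of the 3 had a position in the annotation used.

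In absolute terms the largest fall in mean normalised counts was in FLG, which encodes filaggrin, the keratin-binding protein of cornified skin. FLG (chromosome 1, 152274641 to 152297715) had 203854, 239395 and 291912 normalised counts in untreated libraries and 122299, 143228 and 133659.8 in IgA libraries, a mean of 133062 ± 10478 against 245053 ± 44301 (SD, n = 3) (log2 fold change -0.88, SE 0.16, edgeR adjusted p 0.00387). The IgA libraries were here closer to each other than the untreated ones, and IgG libraries lay at 224278 to 259461. Its promoter is shown as the sequence upstream of the gene with this largest fall: the 250 bases before the RefSeq start on the minus strand of GRCh38.p14 (chr1:152325240-152325489), 5′ to 3′. Capitals mark a match to the AP-1 letters TGANTCA, 79 bases before the start.
FLG promoter: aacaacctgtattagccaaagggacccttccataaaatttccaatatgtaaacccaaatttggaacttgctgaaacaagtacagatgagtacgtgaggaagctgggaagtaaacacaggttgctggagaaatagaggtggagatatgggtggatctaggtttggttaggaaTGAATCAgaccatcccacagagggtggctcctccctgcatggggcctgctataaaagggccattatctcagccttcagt
The letters TGANTCA, searched on both strands, stood in 5.16% of 1065 promoters of decreased genes, 6.22% of 1366 promoters of increased genes and 4.72% of all 11448 promoters matched, each of 300 bases. These shares are descriptions of letters and say nothing of binding.

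EGR1 (chromosome 5, 137801168 to 137804992), an immediate-early zinc finger factor, had 22297, 19021 and 9960.5 in untreated libraries and 3550.2, 6938 and 1666 with IgA (log2 fold change -2.07, SE 0.44, edgeR adjusted p 0.00892). Both groups spread by more than 2-fold, without overlap, and the log2 fold change was -2.71 without IgA replicate 2. MT-ND3, a mitochondrially encoded subunit of complex I, fell from 61152, 63309.7 and 49383 to 32834, 40828 and 39957 (log2 fold change -0.61, SE 0.14, edgeR adjusted p 0.0128), and the call was lost without untreated replicate 1 or 2 (edgeR adjusted p 0.067 and 0.0656). SLC38A1 (chromosome 12, 46576846 to 46663800), a sodium-coupled glutamine transporter, fell from 32094 ± 3316 to 23004 ± 1844 (log2 fold change -0.48, SE 0.12, edgeR adjusted p 0.0204). KRT8 (chromosome 12, 53290971 to 53343738), a simple-epithelium keratin, fell from 34348 ± 2151 to 25778 ± 1059.8 (log2 fold change -0.41, SE 0.11, edgeR adjusted p 0.0243). DDX5 (chromosome 17, 62494372 to 62504317), an RNA helicase, fell from 27644 ± 2948 to 19739 ± 1150.4 (log2 fold change -0.49, SE 0.12, edgeR adjusted p 0.0178). These 3 falls were 1.33-fold to 1.40-fold, and each lost its call when single untreated libraries were left out (SLC38A1 without replicate 1 or 3, KRT8 without any 1, DDX5 without replicate 1 or 2; edgeR adjusted p 0.0638 to 0.133).

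Genes that mark Müllerian and serous identity were called lower in 10 of 28 cases (35.7%) and higher in 1 (3.57%), against 8.85% and 10.5% of all genes, and the median log2 fold change of the list was -0.26, against -0.01 over all genes tested. With library size alone as the scale the median of the list was -0.45, against -0.21 over all genes. CLDN3 (chromosome 7, 73183327 to 73184600), a tight junction protein, went from 2218, 2021 and 2523 to 909, 754 and 477 (log2 fold change -1.65, SE 0.20, edgeR adjusted p 5.43e-04). SOX17 and EMX2, transcription factors of the reproductive tract, had log2 fold changes of -1.24 (edgeR adjusted p 0.00101) and -0.86 (edgeR adjusted p 0.00484). FOLR1, the folate receptor, had -1.08 (edgeR adjusted p 0.00347). WT1, which marks serous histology, went from 4704 ± 328 to 1946 ± 840.3 (log2 fold change -1.27, edgeR adjusted p 0.00761). BCAM, KRT8, CLDN4, KLK8 and CDH6 were the remaining decreased members, between -0.41 and -0.86. KRT7, a keratin of glandular epithelium, was the increased one (log2 fold change 0.50, SE 0.10, edgeR adjusted p 0.0086); with library size alone or without untreated replicate 1 it was not called. PAX8 (0.37, edgeR adjusted p 0.0685), MUC16 (0.37, 0.604), MSLN (0.06, 0.870) and EPCAM (-0.01, 0.964) did not pass the test.

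The Wnt list had 6 of 19 tested genes lower (31.6%, against 8.85% of all genes) and 3 higher (15.8%, against 10.5%), with a median of -0.43. Its medians in IgA replicates 1, 2 and 3 against the untreated mean were -0.145, -0.0003 and -0.496. With IgA replicate 1, 2 or 3 left out, 6, 6 and 7 of the list were lower. APCDD1 (chromosome 18, 10454632 to 10489946), an inhibitor of Wnt at the cell surface, went from 199.9, 152 and 219.9 to 47.5, 49.1 and 35.9 (log2 fold change -2.09, SE 0.27, edgeR adjusted p 7.68e-04). With AXIN2, the feedback inhibitors NKD2 (-0.94, edgeR adjusted p 0.00306) and ZNRF3 (-0.58, edgeR adjusted p 0.0135) fell, as did the R-spondin receptor LGR4 (-0.89, edgeR adjusted p 0.00524) and the Wnt receptor FZD7 (-0.63, edgeR adjusted p 0.0161). Of the secreted antagonists SFRP1 rose by 0.72 (edgeR adjusted p 0.00608) and DKK1 by 2.15 (edgeR adjusted p 0.0126) on the log2 scale, and NOTUM was not called (-0.54, edgeR adjusted p 0.715). PORCN, needed to secrete Wnt proteins, rose by 0.72 (edgeR adjusted p 0.0139). RNF43, SP5, LEF1 and TCF7 did not pass the test, with log2 fold changes between -0.79 and 0.17.

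Of 20 Notch genes, 5 were lower (25.0%) and 1 higher (5.0%), beside 8.85% and 10.5% of all genes. Their median was -0.37, or -0.55 without IgA replicate 2 and -0.56 with library size alone. The receptor NOTCH3 (chromosome 19, 15269849 to 15311806) went from 3870.1, 3876 and 4901 to 1586, 2301 and 1239 (log2 fold change -1.30, SE 0.20, edgeR adjusted p 0.00199). Of the HES and HEY transcriptional repressors, HEYL at -1.56 (edgeR adjusted p 0.0172), HES2 at -1.19 (edgeR adjusted p 0.00359) and HEY2 at -1.19 (edgeR adjusted p 0.0101) were called lower, and HEY1 (0.57, edgeR adjusted p 0.171), HES1 (-0.20, 0.668) and HES4 (-0.06, 0.861) were not called. The co-activator MAML1 had -0.57 (edgeR adjusted p 0.0336), and its relative MAML2 rose (log2 fold change 0.88, SE 0.18, edgeR adjusted p 0.00774), a call lost without untreated replicate 3. With library size alone as the scale 9 of the 20 were lower. On that scale 2221 of all 17076 genes were lower, and the median over all genes was -0.21. NOTCH1, NOTCH2 and JAG1 did not pass the test, with log2 fold changes from -0.39 to 0.09.

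In the list of motile cilia genes, 3 of 25 tested were lower and 0 higher: FOXJ1, WDR52 (-0.91, edgeR adjusted p 0.00362) and TP73 (-1.24, edgeR adjusted p 0.0132), a transcription factor of multiciliated cells. The share of 12.0% lower stood beside 8.85% over all genes, and the list median was -0.42. The axonemal dynein genes DNAH5 (0.34), DNAH7 (-0.61) and DNAH11 (-0.49) did not pass the test. Without IgA replicate 3, 6 of the list were lower and 1 higher, and the median was -0.69. All genes called lower went from 1512 to 2064 in that setting.

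Zinc finger genes named ZNF formed the longest list of decreased genes, with 90 of 484 tested lower (18.6%) and 18 higher (3.72%), against 8.85% and 10.5% of all genes. The list median was -0.23, and its medians in IgA replicates 1, 2 and 3 against the untreated mean were -0.36, -0.11 and -0.22. ZNF512B (chromosome 20, 62588057 to 62601283) went from 1704, 1817 and 1867 to 751, 925 and 786 (log2 fold change -1.13, SE 0.12, edgeR adjusted p 2.97e-04). In the opposite direction ZNF165 (chromosome 6, 28048346 to 28057341) went from 188, 272 and 265 to 886, 625 and 720.3 (log2 fold change 1.62, SE 0.20, edgeR adjusted p 5.42e-04). With a correction for GC content and transcript length 88 were lower and 19 higher, without IgA replicate 1, 58 were lower, and with library size alone 130 were lower and 6 higher. Calls over all genes moved as well. They were 1540 lower and 1909 higher with that correction, 1042 lower without IgA replicate 1, and 2221 lower and 787 higher with library size alone. Many ZNF genes are close copies of each other, so counting may lose or misplace their reads.

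Ephrins and Eph receptors, which signal between touching cells, went in both directions, with 4 of 19 lower (21.1%, against 8.85% of all genes) and 3 higher (15.8%, against 10.5%). EFNB2 (chromosome 13, 107142093 to 107188010) went from 1943, 2042 and 1954 to 836, 1047 and 736 (log2 fold change -1.18, SE 0.14, edgeR adjusted p 4.66e-04), and the receptors EPHA4 and EPHB3 were at -1.03 (edgeR adjusted p 0.00451) and -0.96 (edgeR adjusted p 0.00432). EFNB3 was the other decreased member (-0.71). EPHA2 (chromosome 1, 16450832 to 16482564) rose from 9191 ± 679.9 to 19275 ± 941 (log2 fold change 1.07, SE 0.11, edgeR adjusted p 2.00e-04), with EFNA1 (1.64) and EFNB1 (1.14). Without IgA replicate 3, 5 of the list were higher.

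Voltage-gated channel subunits were lower in 5 of 36 (13.9%, against 8.85% of all genes) and higher in 2 (5.56%, against 10.5%). Without IgA replicate 3, 8 of them were lower, while all genes called lower went from 1512 to 2064. The 36 include KCNQ1OT1, an antisense RNA and no subunit, which was not called (0.81, edgeR adjusted p 0.163). SCN2B, a sodium channel beta subunit (chromosome 11, 118033521 to 118047354), went from 98.4, 111 and 97.995 to 26.5, 25.5 and 26.6 (log2 fold change -1.96, SE 0.32, edgeR adjusted p 0.00236), and its IgA libraries spanned 0.05 on the log2 scale, the least of the 70 genes named by rule. CACNA1H, a T-type calcium channel, was at -2.22 (edgeR adjusted p 0.00665), and CACNB1, a calcium channel beta subunit, rose by 1.09 (edgeR adjusted p 0.00566). Of 21 circadian clock genes 3 were lower (14.3%), or 1 without IgA replicate 1, and 6 higher (28.6%), beside the same shares of all genes. BHLHE41 (chromosome 12, 26272963 to 26277970) went from 11299 ± 977 to 5149.9 ± 865 (log2 fold change -1.13, SE 0.14, edgeR adjusted p 5.27e-04), whereas its relative BHLHE40 rose by 1.93 (edgeR adjusted p 4.67e-04) and the period gene PER1 (chromosome 17, 8043790 to 8059824) by 2.43 (edgeR adjusted p 1.22e-04) on the log2 scale. NR1D1 and NR1D2, a pair of related nuclear receptors, moved apart, at 2.59 (edgeR adjusted p 2.37e-04) and -0.56 (edgeR adjusted p 0.0246).

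In metabolism, PCK1 (chromosome 20, 56136136 to 56143177), the rate-limiting enzyme of gluconeogenesis, went from 42.0, 21.6 and 48.6 to 4.42, 0 and 0 normalised counts (log2 fold change -4.49, SE 0.94, edgeR adjusted p 0.00886), that is, 4 reads in 1 IgA library and 0 in the other two. Its log2 fold change was -8.26 without IgA replicate 1 and -3.85 without IgA replicate 2, and the call was lost without untreated replicate 3. The list of fatty acid oxidation and PPAR targets, 23 tested, also had ACADM lower (-0.45) and PPARG higher (1.36). Its shares were 8.70% lower and 4.35% higher, against 8.85% and 10.5% of all genes. Of that list 7 were lower with library size alone or with all 9 libraries, and 4 without IgA replicate 3. All genes called lower numbered 2221, 2187 and 2064 in those settings. Of 38 mitosis genes 5 were lower (KIF11, NDC80, ASPM, CENPE and KIF23) and 3 higher (PRC1, ANLN and KIF2C), that is 13.2% and 7.89%, against 8.85% and 10.5% of all genes. KIF11 (chromosome 10, 94333862 to 94415152), the spindle motor, had -0.69 (edgeR adjusted p 0.00304) and PRC1 0.66 (edgeR adjusted p 0.00808), the latter not called without untreated replicate 3. Of the mitosis list, 3 were lower without IgA replicate 1, 7 were higher without IgA replicate 3, and 0 were higher with library size alone. Over all genes the same settings gave 1042 lower, 2223 higher and 787 higher. Of 40 DNA replication genes E2F2 (-1.43, edgeR adjusted p 0.00111) and CCNE1 (-0.68, edgeR adjusted p 0.0397) were lower and GINS1 (0.68, edgeR adjusted p 0.0222) and CDC6 (0.54, edgeR adjusted p 0.0227) higher, and GINS1 lost its call with library size alone or without IgA replicate 1 or untreated replicate 2 or 3. That is 5.0% in each direction, and 5 were higher without IgA replicate 3, 1 lower and 1 higher without IgA replicate 1, 1 higher without IgA replicate 2 and 0 higher with library size alone. HOX genes gave 2 lower (5.88%) and 3 higher (8.82%) of 34, with 4 lower without IgA replicate 2 and 1 without IgA replicate 1, and with HOXA6 (-1.87) and HOXB2 (1.21) farthest from 0. Replication-dependent histone genes, which are close copies of each other, gave 7 lower and 13 higher of 62, with HIST2H3D (-1.12) and HIST1H3J (1.90) farthest from 0. That is 11.3% and 21.0%, against 8.85% and 10.5% of all genes. Without IgA replicate 2 or with library size alone 11 were lower. All genes called lower went from 1512 to 1964 and 2221 under those settings. Nuclear respiratory chain subunits gave 1 lower and 1 higher of 81 (1.23% each), ATP5D (-0.42) and COX6C (0.57), both lost without any 1 untreated library. Of these 81, 16 were higher and 0 lower without IgA replicate 3, 7 were higher and 0 lower without IgA replicate 2, 4 were higher with all 9 libraries or with voom, and 0 were higher with library size alone or with GC and length correction. All genes called higher numbered 2223, 1945, 2316, 1916, 787 and 1909 in those settings.

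**Figure D2:**
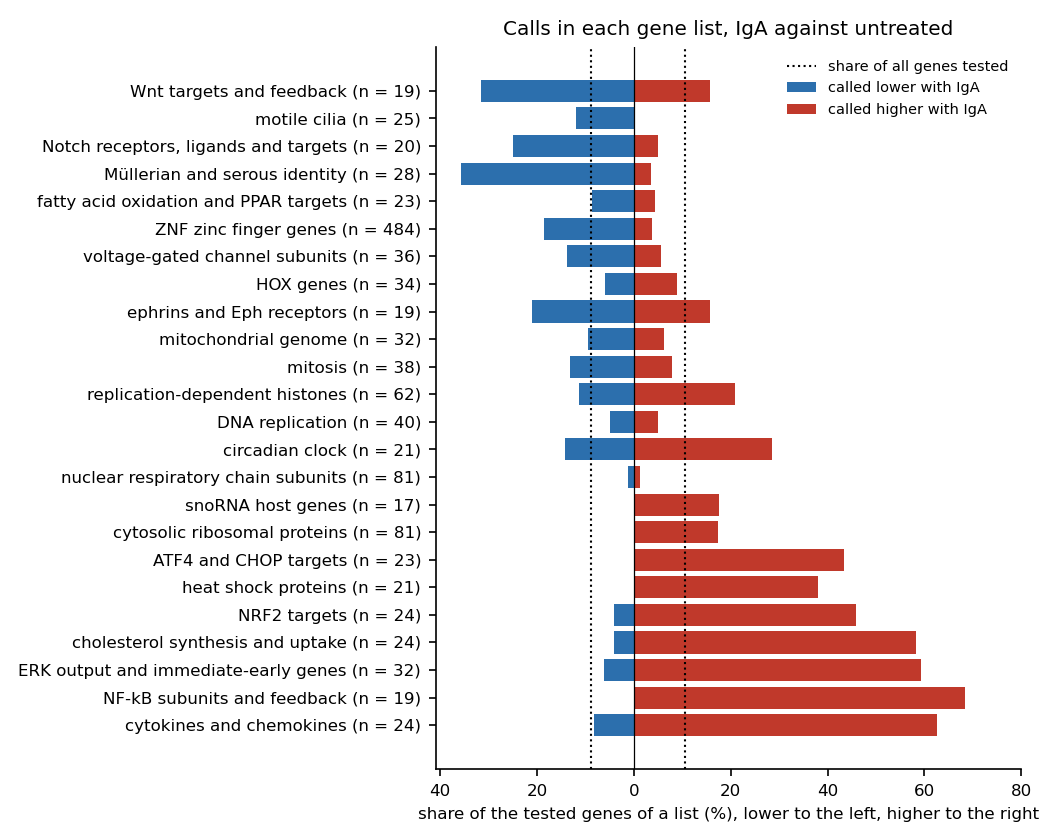
Share of the tested genes of each list called lower (left, blue) or higher (right, red) with IgA, lists ordered by their median log2 fold change, with dotted lines at the 8.85% and 10.5% of all genes tested. Past the left line reach the Müllerian and serous, Wnt, Notch, ephrin, ZNF, circadian, channel, mitosis, cilia, histone and mitochondrial genome lists. Past the right line reach the cytokine, NF-kB, ERK, cholesterol, NRF2, ATF4, heat shock, circadian, histone, snoRNA host, ribosomal, Wnt and ephrin lists. The circadian, histone, Wnt and ephrin lists thus pass both lines.

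Some decreased genes sat within lists that rose. Against 10.5% higher and 8.85% lower of all genes, the ERK list had 59.4% and 6.25%, and the cytokine list 62.5% and 8.33%. The cholesterol list had 58.3% and 4.17%, and the NRF2 list 45.8% and 4.17%. Of 32 genes of ERK output and the immediate-early response, 19 were higher and 2 lower, and the 2 were EGR1 and EGR2 (-2.0017, edgeR adjusted p 0.0357). DUSP5 (chromosome 10, 112257665 to 112271291), a phosphatase that ERK induces and that acts on ERK, had 645, 511 and 532 in untreated libraries and 5882, 6174 and 5940.4 with IgA (log2 fold change 3.42, SE 0.13, edgeR adjusted p 2.35e-07). Its IgA libraries were within 0.07 of each other on the log2 scale, against 2.06 for EGR1. Of 24 cytokine and chemokine genes 15 were higher and 2 lower, CCL28 and TNFSF10. CCL28 (chromosome 5, 43376747 to 43412493), a mucosal chemokine known for attracting IgA-secreting cells, went from 7467, 6149.8 and 9208 to 3294, 2951 and 2855 (log2 fold change -1.33, SE 0.15, edgeR adjusted p 3.36e-04). TNFSF10, which encodes the death ligand TRAIL, had -1.92 (edgeR adjusted p 6.52e-04). Among 24 cholesterol genes TM7SF2, a sterol reductase, was the 1 lower (log2 fold change -0.68, SE 0.16, edgeR adjusted p 0.0167), though not without untreated replicate 1 or 3, and 14 were higher. Among 24 NRF2 genes KEAP1, the inhibitor of NRF2, was the 1 lower (log2 fold change -0.58, SE 0.16, edgeR adjusted p 0.0267), a call lost without IgA replicate 1 or any 1 untreated library, and 11 were higher, or 3 with library size alone, with NFE2L2, which encodes NRF2, at 0.71 (edgeR adjusted p 0.00278).

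Other lists had increases and no decrease. The shares called higher, against 10.5% of all genes, were 68.4% (NF-kB), 43.5% (ATF4 and CHOP), 38.1% (heat shock), 17.3% (ribosomal) and 17.6% (snoRNA host). NF-kB subunits and feedback genes were higher in 13 of 19, with a median of 1.23, and TNFAIP3 (chromosome 6, 138188351 to 138204451), which shuts the pathway off, went from 356, 296 and 322 to 5214, 4359.6 and 7114 (log2 fold change 4.10, SE 0.19, edgeR adjusted p 1.12e-06). Targets of ATF4 and CHOP were higher in 10 of 23, among them HERPUD1 (2.65, edgeR adjusted p 1.53e-05) and the endoplasmic reticulum chaperone HSPA5 (2.48, edgeR adjusted p 1.01e-05), and heat shock genes in 8 of 21, among them HSPA1A and HSPA1B, near-identical copies whose counts cannot be told apart. Cytosolic ribosomal protein genes were higher in 14 of 81 with a median of 0.28, but in 0 of 81 with scaling by library size alone (median 0.08), in 5 without IgA replicate 1 and in 32 without IgA replicate 3, with RPS13 at 0.64 (edgeR adjusted p 0.0084). All genes called higher numbered 787, 1409 and 2223 in those 3 settings. Of 17 snoRNA host genes ZFAS1, SNHG6 and SNHG5 were higher, and 1 of the 17 was without IgA replicate 1 or with library size alone.

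The largest increases were in CLDN14, IL8, CD69, CCL20 and HSPA6. CLDN14, a claudin, had 0 counts in every untreated library and 35.3, 26.5 and 99.997 normalised counts with IgA, at least 20.4-fold higher when 3 counts are set for each untreated library. IL8 (chromosome 4, 74606236 to 74609433), a neutrophil chemokine, went from 84.0, 163 and 174 to 19696, 11159 and 18565 (log2 fold change 6.86, SE 0.32, edgeR adjusted p 1.12e-06). CCL20 (chromosome 2, 228670455 to 228682280) went from 29.7, 36.5 and 27.1 to 2412, 2344 and 3179.6 (log2 fold change 6.40, SE 0.20, edgeR adjusted p 8.71e-08). HSPA6, an inducible heat shock protein, had 5.89 (edgeR adjusted p 8.85e-06). CD69, an early activation antigen of lymphocytes, had 6.86 (edgeR adjusted p 4.88e-05) from 1.37 normalised counts on average in untreated cells, and 8.30 without untreated replicate 2. All IgA libraries were above the IgG libraries too, where IL8 lay at 100.01 to 173 and CCL20 at 16.3 to 44.3.

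Promoters of a pair of increased genes, NFKBIA of the NF-kB list and IL6 of the cytokine list, are shown as examples. Only promoters that hold a match were shown, so the match in each is no result. Matches to the kappa-B motif of NF-kB, a pattern of 10 letters with 1 of them free, on either strand, stood in 2 of 1065 promoters of decreased genes (0.188%), 22 of 1366 of increased genes (1.61%) and 66 of all 11448 (0.577%). No difference between these shares was tested. Each sequence gives the 250 bases before the RefSeq start on GRCh38.p14, 5′ to 3′ along the gene, with the match in capitals, 81 bases before the start in NFKBIA (minus strand, chr14:35404750-35404999) and 73 bases in IL6 (plus strand, chr7:22726950-22727199).
NFKBIA promoter: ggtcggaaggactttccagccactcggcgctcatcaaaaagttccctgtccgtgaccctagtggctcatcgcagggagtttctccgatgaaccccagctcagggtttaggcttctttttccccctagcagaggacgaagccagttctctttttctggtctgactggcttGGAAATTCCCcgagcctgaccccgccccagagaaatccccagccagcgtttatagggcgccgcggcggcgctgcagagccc
IL6 promoter: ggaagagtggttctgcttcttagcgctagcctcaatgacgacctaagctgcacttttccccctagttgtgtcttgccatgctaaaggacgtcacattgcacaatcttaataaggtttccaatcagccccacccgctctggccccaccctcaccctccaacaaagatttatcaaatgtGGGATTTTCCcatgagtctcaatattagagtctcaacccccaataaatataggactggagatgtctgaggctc
NFKBIA, the inhibitor that holds NF-kB in the cytoplasm, had 2.67 (edgeR adjusted p 2.44e-06) and the cytokine IL6 had 5.20 (edgeR adjusted p 1.16e-06). The letters CTTTGAT of TCF/LEF factors, which act in Wnt signalling, stood on either strand in 1.502% of promoters of decreased genes, 0.732% of increased ones and 1.45% of all.

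The 3 IgA libraries differed from each other by more than the untreated libraries did. Over all genes tested, the median absolute log2 difference was 0.25 between IgA replicates 1 and 2, 0.36 between 1 and 3 and 0.35 between 2 and 3. Between untreated replicates it was 0.14, 0.18 and 0.19 for the same pairs, and between IgG replicates 0.12, 0.22 and 0.19. The common dispersion, edgeR's measure of squared relative spread beyond counting error, was 0.0708 for IgA, 0.0127 for untreated and 0.0147 for IgG libraries fitted alone. The edgeR test of called genes used 1 dispersion per gene for both groups, so its p-values reflect a pooled spread. With limma-voom and a variance for each group, 1526 genes were lower and 1916 higher. Of the 1512 lower genes 1334 were kept, and of the 1789 higher genes 1769. The range over the libraries was wider with IgA than without in 12973 genes (76.0%). With 3 libraries a group no permutation test of a spread can pass 0.05, since the smallest p is 0.1, so none was made. The same order held among genes with at least 200 normalised counts on average, where IgA pairs differed by 0.184, 0.265 and 0.254 and untreated pairs by 0.0931, 0.129 and 0.138.

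**Figure D3:**
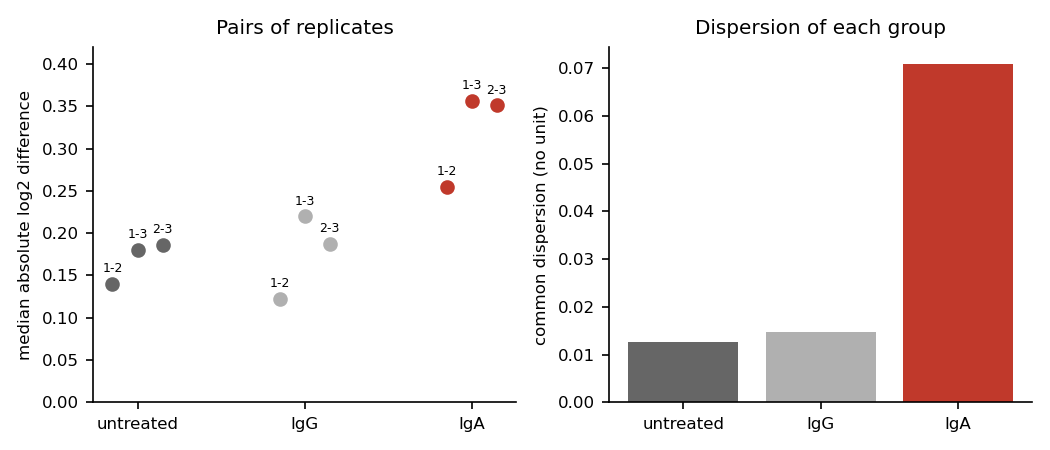
Left, median absolute log2 difference between each pair of replicates (numbers name the pair) over 17076 genes. Right, common dispersion of each group fitted alone. All 3 IgA pairs, at 0.25 to 0.36, lie above all untreated and IgG pairs, which reach 0.22.

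IgA replicate 3, the smallest of the 6 libraries, stood apart most often. The part of its size and composition in this was not tested. Of 10827 genes with at least 200 normalised counts on average, 669 (6.18%) spanned more than 2-fold over the IgA libraries and 40 (0.369%) over the untreated ones. The library farther from the other two was IgA replicate 3 in 483 of the 669 (72.2%), replicate 2 in 112 and replicate 1 in 74. In the untreated group it was likewise replicate 3, in 29 of the 40 (72.5%). Of the 669, 90 were called lower, 115 higher and 464 were not called. Among decreased genes IgA replicate 3 was the lowest of the 3 in 864 of 1512 (57.1%, against 40.4% of all genes), and replicate 2 the highest in 939 (62.1%, against 32.6%). The median log2 difference of the 1512 genes from the untreated mean was -0.84 in IgA replicate 1, -0.64 in replicate 2 and -0.95 in replicate 3. In the 1789 increased genes it was 0.73, 0.59 and 0.88. Replicate 2 was nearest to untreated cells in both, and the sign of these medians follows from the choice of called genes. Without IgA replicate 3 the fit called 2064 genes lower and 2223 higher, and 1457 of the 1512 were among the former. Without replicate 1 it called 1042 and 1409, with 920 of the 1512 kept.

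The genes with the widest spread over the IgA libraries were short structured RNAs, a grouping made after their values were seen. VTRNA1-3, a vault RNA (chromosome 5, 140105743 to 140105831), had 528, 456 and 4.69 normalised counts in IgA replicates 1, 2 and 3 and 557, 784 and 602 in untreated ones. SNORD3A, the U3 small nucleolar RNA, had 2331, 34623 and 78166 against 18605, 33271 and 24197. IgA replicate 3 was thus lowest in the vault RNA and highest in U3, where replicate 1 was lowest. MIR3648, which lies in a repeated ribosomal DNA-like segment of chromosome 21 and can share reads with copies, had 1309.6, 597 and 14995 against 1546, 2654 and 2072. None of these 3 was called in the main fit. Without the filter on low counts VTRNA1-3 was called lower (-0.96, edgeR adjusted p 1.53e-05). In that setting SNORD3A (0.58, edgeR adjusted p 2.33e-04) and MIR3648 (1.41, edgeR adjusted p 6.02e-23) were called higher. The IgA libraries spanned 6.31, 5.07 and 4.65 on the log2 scale in VTRNA1-3, SNORD3A and MIR3648. With the filter their edgeR adjusted p were 0.404, 0.629 and 0.277. The small p-values without the filter thus do not measure the spread of these genes and carry no weight. MIR3648 turned from 1.43 to -1.14 without IgA replicate 3, where it was called lower (edgeR adjusted p 0.00855).

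Spliceosomal RNAs of the U4 and U11 kind were higher in IgA replicate 3 than in any other library. RNU4-1 had 404, 146 and 3278 with IgA and 78.9, 110.3 and 99.6 without (log2 fold change 3.71, SE 0.91, edgeR adjusted p 0.0177). RNU4-2, a close copy of it that can share its reads, had 271, 109 and 1870.3 and 75.8, 80.5 and 75.7, and RNU11 had 1094, 365 and 7086 and 297, 370.0 and 206. All IgA libraries lay above all untreated ones in both RNU4 genes but not in RNU11. The log2 fold changes dropped from 3.71, 3.26 and 3.28 to 1.51, 1.29 and 1.33 without IgA replicate 3, and all 3 calls were lost without any 1 untreated library. RNU11 was also not called with the replicate number as a block (2.25, edgeR adjusted p 0.0806). With GC and length correction added to the block it was 2.26 (edgeR adjusted p 0.0965).

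By class, mitochondrial tRNAs went the opposite way from other mitochondrial transcripts in IgA replicate 3. Among the 3 IgA libraries, all 19 tested were lowest in replicate 3, and 11 had no count there. Their median in replicate 3 lay at -3.25 on the log2 scale against the untreated mean, with 0.34 and -0.03 in replicates 1 and 2. The 15 mitochondrial mRNAs and rRNAs had a median of 0.68 in replicate 3 and -0.37 and -0.56 in the others. MT-RNR2, the large mitochondrial ribosomal RNA, went from 68553, 77428 and 81280.3 in untreated libraries to 130625, 84982 and 581428 (log2 fold change 1.81, SE 0.56, edgeR adjusted p 0.0445), and its log2 fold change was 0.51 without IgA replicate 3. Its call was lost without any 1 untreated library, with DESeq2 and with GC correction, upper quartile scaling or the replicate block. MT-TA, the alanine tRNA, had 0 to 2 counts in IgA libraries, which put it at least 5.90-fold below untreated cells when 3 counts are set for each. In the list of 32 mitochondrial genes MT-TA, MT-ND3 and MT-TT were called lower and MT-RNR2 and MT-ND4L higher, whereas 9 were lower without IgA replicate 3 and 2 without IgA replicate 1. A filter on names of pseudogenes left MT-ATP6 (-0.12, edgeR adjusted p 0.780) and MT-ATP8 (-0.33, 0.432) out of that list, and neither was called. The call of MT-TA was lost without untreated replicate 2 or 3.

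IgA replicate 1 stood apart in other RNAs. The 7SK RNA, which holds the elongation factor P-TEFb inactive, and its copies took 2.07% of its counts, against 0.370% and 0.616% in replicates 2 and 3 and 0.379% to 0.481% in untreated libraries. MALAT1, a nuclear long non-coding RNA, took 2.01% of IgA replicate 3 and 0.971% to 1.08% of the other two. Small nucleolar RNAs took 0.0662%, 0.144% and 0.285% of IgA replicates 1, 2 and 3 and 0.110% to 0.164% of untreated libraries. The part of RNA quality or library preparation in these differences was not tested. With the mitochondrial genes left out before scaling, 1514 genes were called lower and 1829 higher, and 1497 of the 1512 were among the former.

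**Figure D4:**
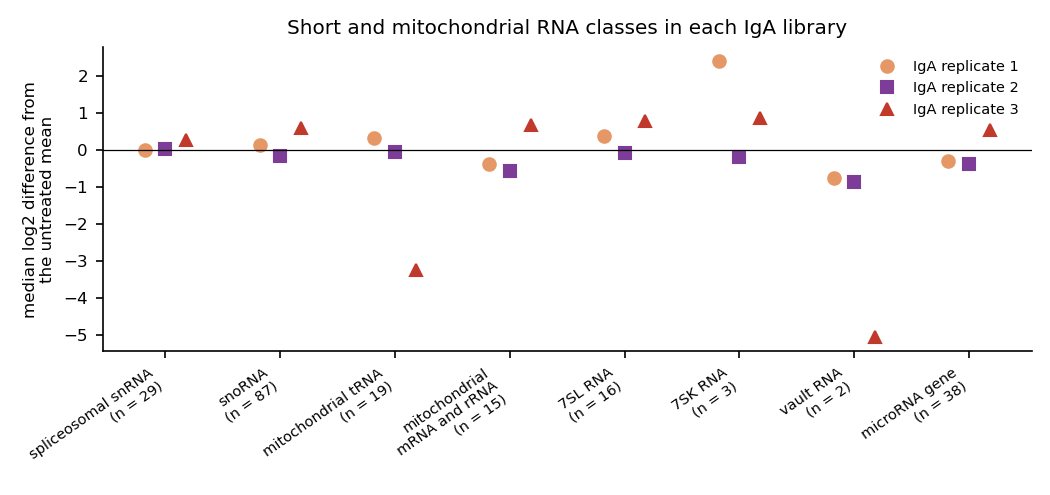
Median log2 difference of each IgA library from the untreated mean, by class of short or mitochondrial RNA with the number of genes tested. IgA replicate 3 lies far below the others in mitochondrial tRNAs and vault RNAs and above them in mitochondrial mRNA and rRNA, and IgA replicate 1 lies above them in 7SK RNA.

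The decreases were set beside those with antigen-specific IgA, each measured against the untreated cells of its own series. Of 1506 genes called lower with non-specific IgA and tested in both series, 276 (18.3%) were called lower with TSPAN7 IgA, which called 757 (4.49%) of the 16867 genes tested in both, and the 276 were 36.5% of that list. In the opposite direction 18 (1.20%) were called higher with TSPAN7 IgA. With BDNF IgA 92 (6.11%) were called lower, which was 15.6% of its 589 genes (3.49% of all), and 78 (5.18%) were called higher, of 832 (4.93% of all). The median log2 fold change of the 1506 genes was -0.10 with TSPAN7 IgA and -0.01 with BDNF IgA, against 0.00 over all genes in both. Over the 18732 genes tested in the second series, 3.18% were called lower and 4.49% higher with BDNF IgA, and 4.08% and 4.46% with TSPAN7 IgA. As BDNF IgA and TSPAN7 IgA share untreated libraries, these counts are not independent of each other.

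A test of the difference between responses, in a fit of all 18 libraries, gave 2418 genes (12.3%) whose response to non-specific IgA lay below that to BDNF IgA and 2163 (11.0%) above it. Against TSPAN7 IgA there were 1712 (8.68%) below, or 2865 without IgA replicate 2, and 1696 (8.60%) above. Of the 16 named decreased genes that were not clone-named, 14 had a response below that to BDNF IgA and 11 below that to TSPAN7 IgA. These genes were chosen for their decrease with non-specific IgA, which favours a lower response, so the counts are a description and not support. FOXJ1 was not among the 11 (edgeR adjusted p 0.104), but was without IgA replicate 3 (0.0362). FOXJ1 had a log2 fold change of -1.4995 with TSPAN7 IgA (SE 0.44, edgeR adjusted p 0.0369) and 0.00 with BDNF IgA (SE 0.37, 0.998). PPP1R16B had -1.28 with TSPAN7 IgA (1.94e-04) and 0.30 with BDNF IgA (0.332). FOXQ1 went in opposite directions with the antigen-specific antibodies, -0.38 with TSPAN7 IgA (0.00357) and 0.38 with BDNF IgA (0.00328). FLG was lower with all 3, at -0.47 with TSPAN7 IgA and -0.39 with BDNF IgA (edgeR adjusted p 8.17e-06 and 1.12e-04). AXIN2 was called higher with BDNF IgA (0.41, 0.0374) and was -0.27 with TSPAN7 IgA without passing the test (0.194). Series and antibody preparation differ together, so their parts cannot be told apart.

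**Figure D5:**
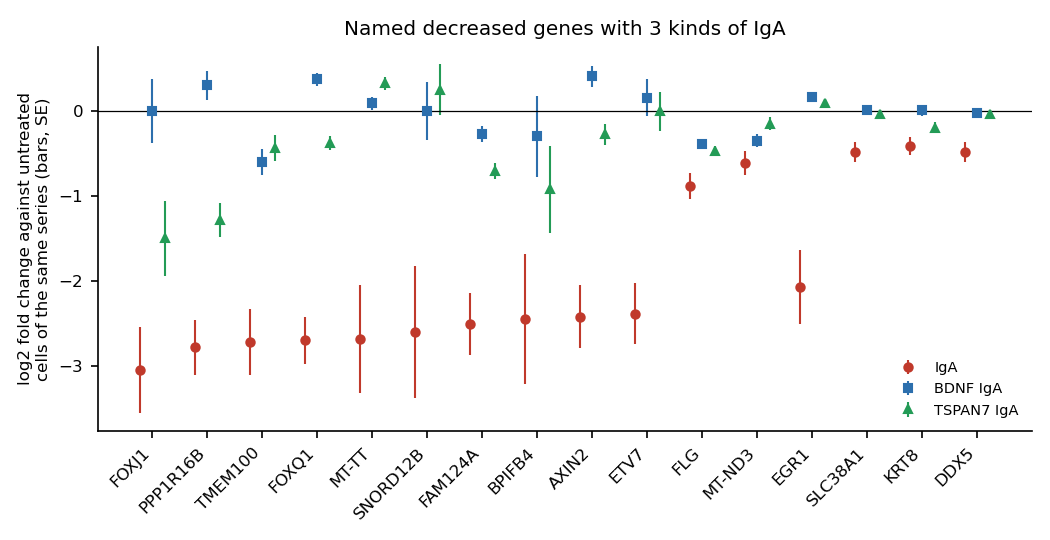
Log2 fold changes against untreated cells of the same series, with SE bars, of the 16 named decreased genes for non-specific IgA (circles), BDNF IgA (squares) and TSPAN7 IgA (triangles). FOXJ1 (-1.4995) and PPP1R16B (-1.28) were called lower with TSPAN7 IgA as well, and FLG with all 3.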

How the data were processed

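RNA from OVCAR3 cells was extracted with RNeasy columns, made into libraries with an Ovation Human FFPE kit and sequenced as 75-base read pairs. By their methods the authors trimmed adapters (cutadapt 1.8.1), used STAR on GRCh37 and featureCounts for counting, while their processing notes name HTSeq 0.6.1; use of strand was not stated. The deposited values were raw counts per gene symbol, and 2055 repeated rows of the second series were removed. Genes were kept by filterByExpr, scaled by TMM and tested with edgeR 4.0.16 (quasi-likelihood F test, two-sided, R 4.3.3) over 6 libraries. DESeq2 1.42.0 and limma 3.58.1 were alternatives. On data simulated for this comparison (16668 genes, 200 changed) 82.5% of changes of 1.5 on the log2 scale were recovered, and 6.78% of calls were false. These rates hold for 1 dispersion per gene, the same for all libraries. Recovery with a wider spread in IgA libraries (common dispersion 0.0708, against 0.0127 in untreated ones) was not tested. Genes were named by rule, without overlap between the groups: the 10 most negative log2 fold changes of called genes with at least 50 normalised counts in untreated cells, the 6 largest falls in mean normalised counts, the 5 largest increases with at least 50 normalised counts with IgA, the 3 largest decreases of clone-named genes, and, whatever the overlap, the 6 widest ranges over IgA libraries with at least 200 normalised counts, the decreased and the increased member of smallest p in each list, and FOXJ1, PIGR, DUSP5 and EFNB2. Other genes named were list members or markers picked after their values were seen. Members and lists were chosen with earlier results of these data known. Of 55765 symbols 33529 matched the annotation directly and 1921 by an older symbol. Sequences are RefSeq GRCh38.p14, and 11448 promoters of tested genes matched. Bounds against 0 use 3 counts per library and cover counting error alone.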

Additional observations from a re-analysis of the deposited data

Results flagged for a closer look

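The response to non-specific IgA differed from the response to antigen-specific IgA in some of the named decreased genes, by an interaction test in an edgeR fit of all 18 libraries. These genes were chosen for their decrease with non-specific IgA and the same values enter the difference, which favours a lower response. Values are the log2 fold change with non-specific IgA minus that with the other antibody, each against untreated cells of its own series. FOXJ1, the ciliogenesis factor, was lower by a difference of -3.10 against BDNF IgA (SE 0.61, edgeR adjusted p 0.00111). PPP1R16B, the phosphatase subunit, was lower by a difference of -3.08 against BDNF IgA (SE 0.42, edgeR adjusted p 3.27e-05) and -1.49 against TSPAN7 IgA (SE 0.43, edgeR adjusted p 0.02). Without IgA replicate 1 the latter was -1.22 and did not pass the test (edgeR adjusted p 0.0584). TMEM100, the transmembrane protein, was lower by a difference of -2.11 against BDNF IgA (SE 0.38, edgeR adjusted p 5.46e-04) and -2.28 against TSPAN7 IgA (SE 0.38, edgeR adjusted p 4.10e-04). FOXQ1, the forkhead factor, was lower by a difference of -3.07 against BDNF IgA (SE 0.32, edgeR adjusted p 2.09e-06) and -2.32 against TSPAN7 IgA (SE 0.32, edgeR adjusted p 6.11e-05). MT-TT, the mitochondrial tRNA, was lower by a difference of -2.74 against BDNF IgA (SE 0.53, edgeR adjusted p 9.20e-04) and -2.97 against TSPAN7 IgA (SE 0.52, edgeR adjusted p 6.31e-04). SNORD12B, the small nucleolar RNA, was lower by a difference of -2.60 against BDNF IgA (SE 0.72, edgeR adjusted p 0.0127) and -2.85 against TSPAN7 IgA (SE 0.72, edgeR adjusted p 0.00925). FAM124A was lower by a difference of -2.21 against BDNF IgA (SE 0.33, edgeR adjusted p 9.26e-05) and -1.78 against TSPAN7 IgA (SE 0.33, edgeR adjusted p 0.00107).

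AXIN2, the Wnt feedback gene, was lower by a difference of -2.81 against BDNF IgA (SE 0.33, edgeR adjusted p 8.84e-06) and -2.13 against TSPAN7 IgA (SE 0.34, edgeR adjusted p 2.26e-04). ETV7, the ETS repressor, was lower by a difference of -2.55 against BDNF IgA (SE 0.36, edgeR adjusted p 5.63e-05) and -2.38 against TSPAN7 IgA (SE 0.36, edgeR adjusted p 1.60e-04). FLG, filaggrin, was lower by a difference of -0.51 against BDNF IgA (SE 0.15, edgeR adjusted p 0.02). EGR1, the immediate-early factor, was lower by a difference of -2.25 against BDNF IgA (SE 0.47, edgeR adjusted p 0.00202) and -2.18 against TSPAN7 IgA (SE 0.47, edgeR adjusted p 0.00346). SLC38A1, the glutamine transporter, was lower by a difference of -0.50 against BDNF IgA (SE 0.13, edgeR adjusted p 0.0101) and -0.46 against TSPAN7 IgA (SE 0.13, edgeR adjusted p 0.0227). KRT8, the keratin, was lower by a difference of -0.43 against BDNF IgA (SE 0.14, edgeR adjusted p 0.0283). DDX5, the RNA helicase, was lower by a difference of -0.47 against BDNF IgA (SE 0.11, edgeR adjusted p 0.00482) and -0.47 against TSPAN7 IgA (SE 0.11, edgeR adjusted p 0.00711). The difference did not pass the test for BPIFB4 (edgeR adjusted p 0.121) and MT-ND3 (0.235) against BDNF IgA. Against TSPAN7 IgA it did not pass for FOXJ1 (edgeR adjusted p 0.104), FLG (0.06), MT-ND3 (0.0517), KRT8 (0.277) and BPIFB4 (0.333). The series and the antibody preparation differ together, so their parts in these differences cannot be told apart.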

How the results depend on the processing

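Leaving out 1 library at a time gave 524 to 2064 genes called lower and 730 to 2223 called higher. The counts without untreated replicate 1, 2 or 3 were 615, 717 and 524 lower and 779, 876 and 730 higher, and without IgA replicate 1, 2 or 3 they were 1042, 1964 and 2064 lower and 1409, 1945 and 2223 higher. An adjusted p under 0.01 left 512 lower and 784 higher, and a change of at least 2-fold left 549 and 577. Library size alone gave 787 higher. Genes whose response lay below that to TSPAN7 IgA numbered 1789 to 2865 when 1 IgA library was left out, the most without replicate 2. The mean pair difference among IgA libraries went from 0.320 to 0.234 with at least 200 normalised counts and to 0.388 with library size alone, and among untreated libraries from 0.169 to 0.120 with at least 200 normalised counts. DESeq2 called 1827 lower and 2038 higher, with 1498 of the 1512 among the former.

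SNORD3A reversed from 0.60 to -0.47 with the replicate block and GC correction, -0.31 with the block, -0.43 with limma-voom and -0.45 without IgA replicate 3. Leaving out 1 library gave SNORD3A values from -0.45 to 1.15, and MIR3648 values from -1.14, a reversal, without IgA replicate 3 to 1.96 without IgA replicate 2. The causes were not tested. With 3 libraries a group, genes of few reads such as FOXJ1 (5 to 10 counts in IgA libraries) are measured with low precision, and close copies such as RNU4-1 and RNU4-2 were not separated. Among other values under the alternatives, 1796 kept their direction and side of the threshold, 86 no longer passed it and 12 newly passed it.

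Over genes, deviations of same-numbered IgA and untreated libraries correlated at -0.01, -0.00 and 0.03, so no pairing by replicate number was seen there. The mitochondrial share did keep the same order by replicate number in the IgA, IgG and untreated groups. It was highest in replicate 3 (19.1%, 8.12% and 8.316%), then replicate 1 (7.40%, 7.17% and 7.457%), then replicate 2 (5.75%, 6.74% and 7.197%). Replicates 1 and 2 were also the closest pair in each of these groups by median absolute log2 difference. With 3 libraries a group, such values cannot show whether the cultures were run in pairs. With the replicate number as a block 1423 genes were lower and 1537 higher, and with GC and length correction as well 1355 and 1588. The difference tests with the block gave 2423 and 2184 genes against BDNF IgA and 1745 and 1694 against TSPAN7 IgA.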
